A study of Homo sapiens with 12 samples.

Results

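The OAS family was examined in RNA-seq libraries of HCT116 cells, a human colon cancer cell line, that had been exposed to the stressors OA or TN. The family comprised OAS1, OAS2, OAS3, and OASL, which were taken by symbol from the gene count matrices of both experiments and are 4 of the 60708 genes counted there. All 4 genes were present in both matrices, and OAS1, OAS3, and OASL passed the filter on low counts in each comparison, whereas OAS2 did not pass in either.

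OAS1, OAS2, and OAS3 are cytosolic enzymes that bind double-stranded RNA (dsRNA) and join ATP into short 2′-5′-linked oligoadenylates. These second messengers activate a latent endoribonuclease that cuts viral and cellular RNA. OASL shares the OAS fold but lacks the synthetase activity and carries ubiquitin-like domains, and it is known for enhancing signalling by the RNA sensor RIG-I. All of these genes are IFN-stimulated genes (ISGs), and OASL can also be switched on directly by IRF3.

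Wild-type HCT116 cells were kept for 24 h with OA (oligomycin A, which blocks the mitochondrial ATP synthase), with TN (tunicamycin, which blocks N-glycosylation and so loads the endoplasmic reticulum with misfolded protein), or with the solvent DMSO. OA and TN each had 3 treated libraries and 3 DMSO libraries of their own (OActrl and TNctrl), all labelled as biological replicates. The labels give 5 µg/mL for both drugs, whereas the methods of the study name a higher dose of OA, so the OA dose is uncertain. Only a single cell line was used, and P-values measure the spread between its cultures.

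The 12 libraries held between 9884124 and 24983573 counts. DDIT3 and HSPA5, targets of the integrated stress response and the unfolded protein response, rose in both experiments: the log2 fold change of DDIT3 was 5.23 ± 0.51 (SE, n = 3 per group) with OA and 4.33 ± 0.34 with TN, and that of HSPA5 was 2.83 ± 0.52 and 2.90 ± 0.21 (edgeR, adjusted p of 0.0100, 0.00240, 0.0301, and 0.00240). Of 8 epithelial markers 7 were detected, with VIL1 at 3 counts at most, whereas 3 of 8 leukocyte markers exceeded 3 counts in the TN experiment and 2 of 8 in the OA experiment. HLA-DRA reached 181 counts, ITGAM 16 counts, and PTPRC and CD3E 1 and 0 counts. Their summed level was 3.48 to 4.98 CPM in OActrl, 1.40 to 6.53 in OA, 8.65 to 10.7 in TNctrl, and 7.99 to 9.59 in TN. The 5 fibroblast markers, of which DCN and LUM had 1 and 0 counts at most, summed to 1.19 to 2.19 CPM in OActrl and 3.84 to 12.4 in OA, nearly all from COL1A1, and to 1.65 to 3.56 in TNctrl and 1.75 to 4.11 in TN. The part of these genes in the results was not tested. Libraries 2 and 3 of both TN and TNctrl stood far above library 1 in the OAS genes, as described for each gene in turn. Their results are therefore given library by library.

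OAS1, OAS3, and OAS2 lie next to each other on the forward strand of chromosome 12 in hg38, at chr12:112905856-112933219, chr12:112938051-112976460, and chr12:112978395-113011723. The gaps between them are 4831 and 1934 bp. OASL lies 8006039 bp further along, on the reverse strand, at chr12:121017763-121039246. The annotated transcripts of the 4 genes share no stretch of 50 identical bases, so no read of that length or longer can match more than 1 of them exactly. The cluster is crossed by an antisense lncRNA, RP1-71H24.1, which had 2 counts at most in any library, and the strand column that was counted is not given in the sources used here.

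The promoters of OAS1 and OAS3 are shown because these genes are IFN-stimulated and their sequences could be searched for the letters of IFN response elements. RefSeq sequences (GRCh38.p14) were at hand for these 2 of the 4 genes, and OAS2 and OASL had no entry. The 250 bases before each RefSeq start are printed on the forward strand, and capitals mark GAAA repeats, at chr12:112906712-112906961 for OAS1 and chr12:112938224-112938473 for OAS3.
OAS1: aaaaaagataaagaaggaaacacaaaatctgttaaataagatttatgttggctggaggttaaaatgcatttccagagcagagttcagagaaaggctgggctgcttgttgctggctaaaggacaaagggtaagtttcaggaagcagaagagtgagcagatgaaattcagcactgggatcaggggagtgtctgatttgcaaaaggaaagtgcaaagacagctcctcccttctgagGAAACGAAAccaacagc
OAS3: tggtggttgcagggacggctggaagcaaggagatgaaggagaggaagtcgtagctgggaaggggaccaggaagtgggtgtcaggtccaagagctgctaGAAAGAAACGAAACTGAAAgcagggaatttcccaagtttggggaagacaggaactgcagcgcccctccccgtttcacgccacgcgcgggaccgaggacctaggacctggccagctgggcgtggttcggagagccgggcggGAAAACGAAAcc
The core of the IFN-stimulated response element, GAAA and again GAAA with any 2 bases between them, was searched on both strands from 250 bases before to 50 bases after the start. OAS3 held it 2 times, at -143 to -134 and at -12 to -3 from the start, whereas 3.57% of the 35116 promoters in the table held it at all. OAS1 held no such match but held GAAACGAAA, the same repeat with 1 base between its parts, at -17 to -9, and a GAAANGAAA repeat was found in 3.12% of promoters. The OAS3 promoter also held this spaced repeat at -148 to -140, overlapping the upstream match, and the unspaced GAAAGAAA (3.3% of promoters) just before that match, at -152 to -145. Neither promoter held TGATGNAA, a target of ATF4 (3.62% of promoters), or the endoplasmic reticulum stress element ERSE (0.0769%). The spaced and unspaced repeats were searched after the values were seen, and each match is a description of letters only.

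With DMSO alone, OAS3 had the highest level of the family in the libraries of the OA experiment. Per kilobase of the canonical transcript, its level in the OActrl libraries was 5.05 ± 0.13 CPM (counts scaled to library size, SD, n = 3), against 2.76 ± 0.41 CPM for OASL and 0.98 ± 0.25 CPM for OAS1. These levels did not overlap, so the order OAS3, OASL, OAS1 held in each OActrl library, and TNctrl library 1 had the same order, with 4.99, 2.26, and 1.01 CPM per kilobase. OAS2 was close to undetectable there, with 2, 1, and 0 counts in OActrl and 2 counts in TNctrl library 1, all under the floor of 3 counts that is used here as the limit of detection.

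TNctrl libraries 2 and 3 held a different profile. OAS1 stood at 108 CPM per kilobase in each, OASL at 96.3 and 90.7, OAS3 at 42.3 and 37.3, and OAS2 at 0.91 and 1.25. OAS1 was thus above OASL and OAS3 in them, but this order depended on the length used, since per kilobase of all annotated exons OASL was highest with 49.9 and 46.9 CPM and OAS1 had 13.5 in both libraries. CPM were scaled within each experiment, so levels of OA and TN libraries are set side by side only roughly.

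**Figure D1:**
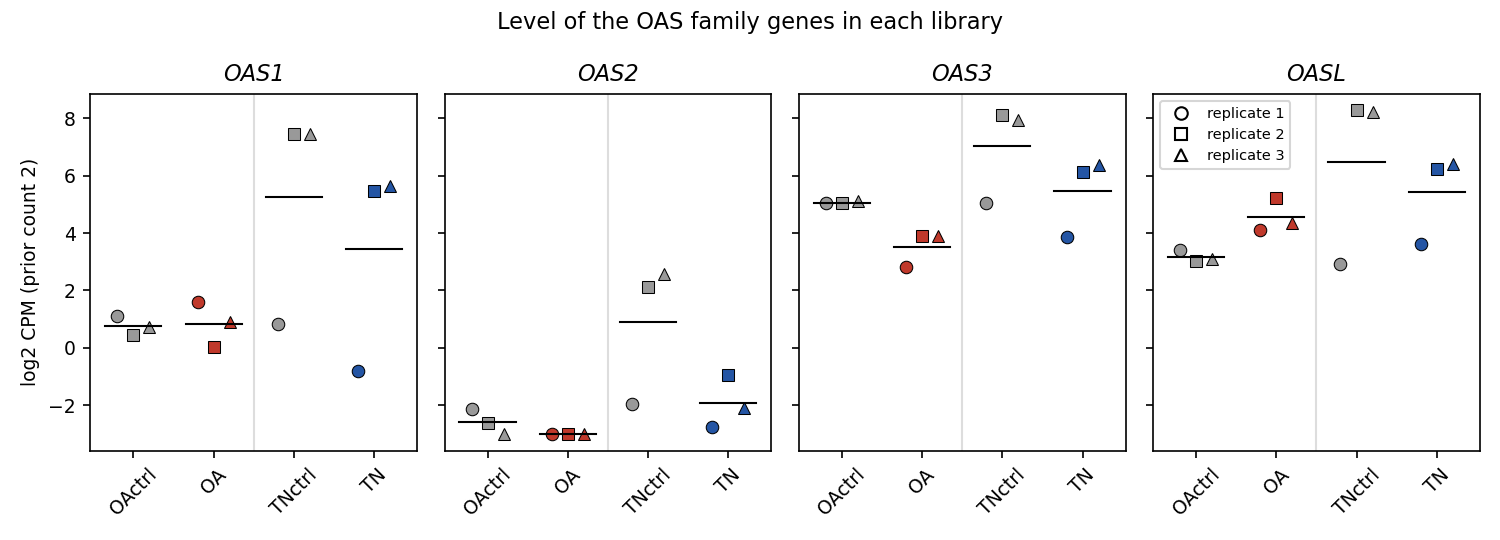
Level of each OAS gene in each of the 12 libraries, as log2 CPM with a prior count of 2 (y axis), by group (x axis), with symbols for replicate numbers and horizontal bars for group means. OAS3 sits near the same level in all OActrl libraries and TNctrl library 1, and in the TN experiment libraries 2 and 3 stand above library 1 for OAS1, OAS3, and OASL in both groups.

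With OA, the members moved in different ways: OAS3 was lower in every OA library, OASL was higher in every OA library, and OAS1 showed neither. None of the 3 tested members passed an adjusted p of 0.05 in edgeR's quasi-likelihood test, by which 4.48% of the 14681 tested genes were called. OAS3 and OASL both had an unadjusted p under 0.05, as did 23.3% of tested genes, and both were called by DESeq2, the tool used in the study, which called 10.6% of genes here. Both also passed in edgeR with the replicate number as a block (adjusted p of 0.00287 and 0.00732), a fit that called 3914 of 14681 genes. Since this is bulk RNA, fewer cells with a transcript and less of it per cell cannot be told apart.

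OAS3, the member that makes most oligoadenylate in many human cells, had 628, 828, and 675 counts in OActrl, or 32.9, 32.7, and 34.3 CPM. It had 93, 149, and 141 counts in OA, or 6.86, 14.9, and 14.6 CPM. The DMSO libraries were close to each other while every OA library lay below all of them, as was the case for 15.5% of tested genes. Its log2 fold change was -1.46 ± 0.34 (SE, edgeR, adjusted p = 0.0507), a 2.76-fold lower level, and DESeq2 gave -1.48 with an adjusted p of 0.00208. Over 12 alternatives the adjusted p ran from 6.97e-09 to 0.189, and it was under 0.05 in 9 of them. The change was largest in library 1, where OA was 4.80-fold below the DMSO library of the same number, against 2.20-fold and 2.35-fold in libraries 2 and 3.

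OASL had 201, 203, and 167 counts in OActrl, or 10.5, 8.02, and 8.49 CPM, and 234, 375, and 197 counts in OA, or 17.3, 37.4, and 20.4 CPM. Every OA library was above every DMSO library, a pattern that 16.3% of tested genes showed, and OA library 2 stood highest. The log2 fold change was 1.47 ± 0.35 (SE, edgeR, adjusted p = 0.0564), a 2.77-fold higher level, and DESeq2 gave 1.45 with an adjusted p of 0.00447. The adjusted p ran from 9.06e-07 to 0.390 over 12 alternatives and was under 0.05 in 7. OA library 2 also had the highest share of RN7SL1 counts, 17.9% against 8.40% and 12.5% in the other OA libraries and 6.02% to 8.11% in OActrl. The part of this share in the result was not tested beyond a fit without the RN7SL genes, in which OASL stood at 1.47 (edgeR, adjusted p = 0.0561). Leaving out OA library 1 or OA library 2 brought both OAS3 and OASL under 0.05, and leaving out any other library did not.

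OAS1 was low in this experiment, with 39, 31, and 30 counts in OActrl and 39, 9, and 17 counts in OA. This corresponds to 2.05, 1.23, and 1.53 CPM against 2.88, 0.90, and 1.76 CPM, and the groups overlapped. In edgeR its change was 0.23 ± 0.51 on the log2 scale (SE, adjusted p = 0.821), and it turned to -0.28 when OA library 1 was left out. No change of OAS1 beyond the spread between replicates was found. OAS2 had 0 counts in each OA library, and both groups were under the floor, so no fold change is given.

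Because OAS3 and OASL went in opposite directions, their counts were also compared within each library, a comparison chosen after the values were seen that does not depend on scaling between libraries. The ratio of OASL to OAS3 counts was 0.320, 0.245, and 0.247 in OActrl and 2.52, 2.52, and 1.40 in OA, a 7.70-fold difference of the geometric means. OASL made up 19.7% to 24.2% of the counts of both genes in OActrl and 58.3% to 71.6% in OA. The choice of this pair of genes fixed that the groups do not overlap, so no test is given. In TNctrl library 1 the share of OASL was 18.3% (95% Wilson interval 15.7 to 21.3), close to OActrl, while TNctrl libraries 2 and 3 held 53.0% and 54.7%. The TN libraries held 45.4%, 52.3%, and 50.9%, so the ratio overlapped between TN and TNctrl. In library 1 alone, TN had a share of 45.4% (39.4 to 51.6) against 18.3% with DMSO, and these intervals cover counting error only.

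**Figure D2:**
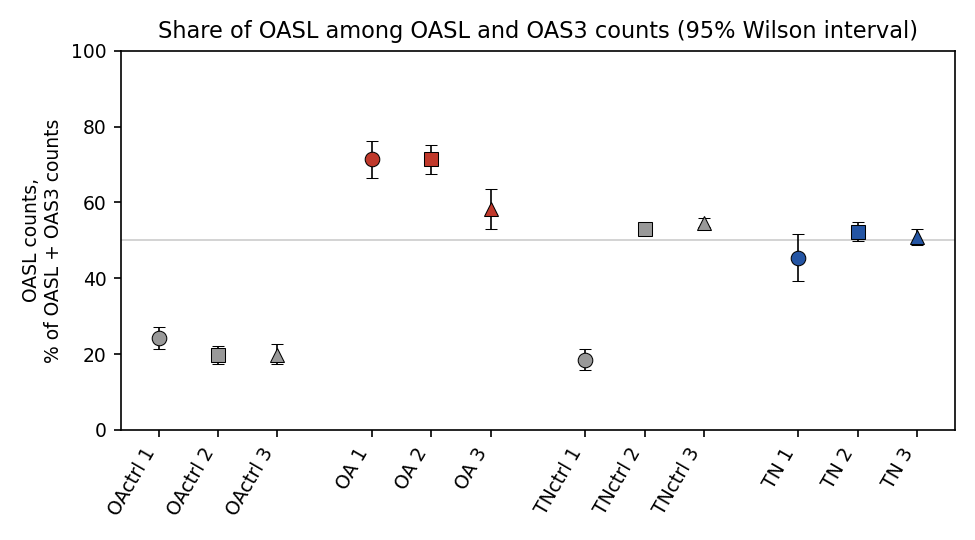
OASL counts as a percentage of OASL and OAS3 counts together (y axis) in each library (x axis), with 95% Wilson intervals. All OActrl libraries and TNctrl library 1 lie at 24.2% or below, and all OA libraries lie at 58.3% or above.

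With TN, all 4 genes were lower on average, but the TN and TNctrl groups each spanned a wide range, because library 1 was low and libraries 2 and 3 were high. In the fit without a replicate term, 0 of the 3 tested members passed in edgeR, against 6.99% of 14432 tested genes, and none had an unadjusted p under 0.05. The replicate numbers were taken to pair the libraries of this experiment, although deviations from the group means across genes did not tell numbers 2 and 3 apart. With the number as a block OAS1 and OAS3 fell, 2 of 3 tested members against 27.1% of all tested genes (15.3% were called lower). DESeq2 without a block called OAS2 and no other member, with an adjusted p of 0.00484, and it called 11.3% of genes.

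OAS1 had 30, 3087, and 2372 counts in TNctrl libraries 1, 2, and 3, or 1.64, 176, and 176 CPM. It had 4, 480, and 575 counts in TN, or 0.42, 44.3, and 49.4 CPM. Libraries 2 and 3 were thus 107-fold above library 1 in TNctrl and 105-fold and 117-fold above it in TN. Within each number, TN was lower than DMSO by a similar factor, 3.90-fold, 3.97-fold, and 3.56-fold, although the first rests on 4 counts. The log2 fold change was -1.91 ± 1.58 (SE, edgeR, adjusted p = 0.514) without the block and -1.91 ± 0.17 (adjusted p = 0.000299) with it, and the adjusted p ran from 8.02e-16 to 0.629 over 12 alternatives.

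OAS3 had 601, 4898, and 3315 counts in TNctrl, or 32.9, 279, and 246 CPM, and 137, 751, and 964 counts in TN, or 14.4, 69.2, and 82.8 CPM. Library 1 of TNctrl matched the OActrl libraries, and libraries 2 and 3 were 8.47-fold and 7.47-fold above it. TN was below DMSO within each number, by 2.28-fold, 4.03-fold, and 2.97-fold, and treated libraries were lower in all 3 pairs for 33.1% of tested genes. Its log2 fold change was -1.74 ± 0.85 (SE, edgeR, adjusted p = 0.260) without the block and -1.61 ± 0.19 (adjusted p = 0.000869) with it, and the adjusted p ran from 4.17e-17 to 0.418 over 13 alternatives. OAS3 was lower than DMSO in all 6 same-numbered comparisons of OA and TN, a pattern whose share over all tested genes was not counted. For OA, where the numbers were not taken to pair, it follows from every OA library lying below every DMSO library.

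OASL had 135, 5532, and 3996 counts in TNctrl, or 7.39, 315, and 296 CPM, and 114, 822, and 999 counts in TN, or 12.01, 75.8, and 85.8 CPM. It differed from OAS1 and OAS3 in library 1, where TN was 1.62-fold above DMSO, whereas TN was 4.16-fold and 3.46-fold below DMSO in libraries 2 and 3. The step from library 1 to libraries 2 and 3 was 42.6-fold and 40.1-fold in TNctrl but 6.31-fold and 7.14-fold in TN. The log2 fold change was -1.83 ± 1.17 (SE, edgeR, adjusted p = 0.393) without the block and -1.21 ± 0.47 (adjusted p = 0.0919) with it, and the adjusted p ran from 3.07e-15 to 0.518 over 13 alternatives. With libraries 2 and 3 alone, a setting added after the values were seen, the log2 fold change was -1.85, and all 4 members passed, as did 42.8% of tested genes. With 1 library per group, the higher OASL level in TN library 1 has no replicate check.

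OAS2 was above the floor only in libraries 2 and 3 of TNctrl and library 2 of TN. It had 2, 74, and 78 counts in TNctrl and 0, 4, and 1 counts in TN, and it was left out by the filter. DMSO was above TN by 11.4-fold in library 2 (95% counting interval 4.28 to 43.0) and by 67.4-fold in library 3 (11.7 to 2696), where the TN value is 1 count. Without the filter OAS2 was lower in TN, with a log2 fold change of -4.35 (edgeR, adjusted p = 0.000861), in a fit that called 5.85% of genes. OAS2 passed the filter when a TN library was left out, and in these filtered fits it stood at -3.78, -5.91, and -4.04 without TN replicates 1, 2, and 3 (adjusted p of 0.133, 0.178, and 0.264), so that both the filter and the libraries differed from the fit above.

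**Figure D3:**
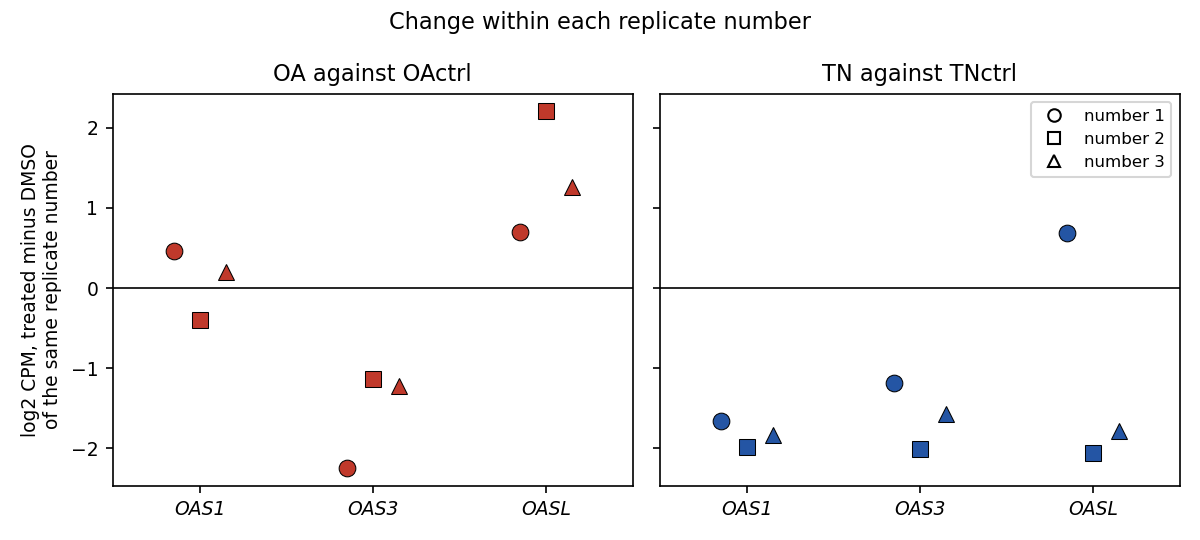
Difference in log2 CPM between each treated library and the DMSO library of the same replicate number (y axis) for OAS1, OAS3, and OASL (x axis), with OA on the left and TN on the right. The numbers were not taken to pair for OA. OAS3 lies below 0 in all 6 comparisons, and OASL lies above 0 in all OA libraries and TN library 1 but below 0 in TN libraries 2 and 3.

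The step between libraries of the same treatment was large in TNctrl, and less so beside other genes in TN for all but OAS1. Of 14432 genes tested in the TN experiment, 8 others had a step from TNctrl library 1 to both libraries 2 and 3 at least as large as OAS1, 20 as large as OASL, and 75 as large as OAS3. OAS2, which was not tested, had a step that 34 tested genes reached, but from 2 counts in library 1. In TN, 4 others reached the step of OAS1, 202 that of OASL, and 404 that of OAS3. The smaller of both steps was over 2 on the log2 scale for all 3 tested members in TNctrl and in TN, against 1.43% and 4.41% of all tested genes. Libraries 2 and 3 of the TN experiment also differed from library 1 in other ISGs, described below with the pathway, and why they stand apart was not tested.

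The changes with OA and TN were compared through a contrast over all 12 libraries, in which no gene passed an adjusted p of 0.05, with 0 of 15429 in edgeR and 0 of 31212 in DESeq2. In edgeR 348 genes (2.26%) had an unadjusted p under 0.05. The OA change exceeded the TN change by 3.14 ± 1.35 on the log2 scale for OASL (SE, edgeR, unadjusted p = 0.0381, adjusted p = 1.00). For OAS1 the difference was 2.02 ± 1.92, and for OAS3 it was 0.12 ± 0.98 (adjusted p = 1.00 for both). With the replicate block in edgeR the difference was 1.96 ± 0.34 for OAS1 (unadjusted p = 0.000231, adjusted p = 0.571). For OASL it was 2.49 ± 0.62 in that fit (unadjusted p = 0.00293, adjusted p = 0.921), and again 0 genes passed. The sign for OAS3 turned with the setting, with values between -0.17 and 0.69 when each library was left out in turn. Without the filter, edgeR called OASL (3.30, adjusted p = 4.88e-09) and OAS1 (2.16, adjusted p = 0.0224), among 25 of 31222 genes, and OAS1 was also called with the block and GC offsets (adjusted p = 0.0311). Over the alternatives the adjusted p ran up to 1.00 for both genes. The group means of OASL thus went in opposite directions, and whether its changes or those of OAS1 were called different depended on the filter or the model, while OAS3 was called in no setting that was run.

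Of the genes that remove or restrain 2′-5′-oligoadenylates, PDE12 and ABCE1 had negative log2 fold changes with both stressors, and AKAP7 showed no change beyond its SE. PDE12, a phosphodiesterase that degrades these oligoadenylates, had 62.6, 26.4, and 43.4 CPM in OActrl and 31.3, 9.98, and 18.7 CPM in OA, and 39.2, 60.5, and 58.3 CPM in TNctrl and 13.2, 29.0, and 35.9 CPM in TN. It was lower than DMSO within every number. It had a log2 fold change of -1.14 ± 0.47 with OA (SE, edgeR, adjusted p = 0.192). With TN it fell by 1.10 ± 0.20 in the blocked fit (adjusted p = 0.00544). ABCE1, a ribosome recycling factor that also inhibits the endoribonuclease of the pathway, stood at -0.98 ± 0.55 with OA (adjusted p = 0.329) and fell by 0.94 ± 0.24 with TN in the blocked fit (adjusted p = 0.0209). AKAP7 stood at -0.14 ± 0.90 with OA and at -0.05 ± 0.35 with TN in the blocked fit, and it did not pass in either comparison. Thus 2 of 3 genes fell with TN in the blocked fit, beside 15.3% of all tested genes called lower. Without the block, 0 of 3 passed with OA or TN, beside 4.48% and 6.99% of all tested genes. In the fits without the block their median log2 fold change was -0.98 with OA and -0.77 with TN, against -0.02 and -0.03 over all tested genes.

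Of the genes for dsRNA sensing, 0 of 11 tested passed with OA, beside 4.48% of all tested genes (median log2 fold change -0.28). TRIM25, a ubiquitin ligase that acts on RIG-I, came closest with 1.30 ± 0.31 (SE, edgeR, adjusted p = 0.0563), and DHX58, a regulator of RIG-I and MDA5, stood at -1.06 ± 0.58 (adjusted p = 0.310). With TN, 4 of 11 fell and 0 rose in the blocked fit (median -0.89), beside 15.3% of all tested genes called lower. These were the endosomal dsRNA receptor TLR3 (-1.63), the dsRNA-activated kinase PKR, encoded by EIF2AK2 (-1.01), the zinc finger antiviral protein ZC3HAV1 (-0.89), and DHX58 (-1.47), with adjusted p-values between 0.00234 and 0.0397. None passed without the block, beside 6.99% of all tested genes.

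The IFN genes themselves were seen in the libraries where the OAS genes stood high. IFNB1 had 0, 193, and 150 counts in TNctrl and 0, 20, and 26 counts in TN, and at most 2 counts in any library of the OA experiment. IFNL1 had 0, 246, and 215 counts in TNctrl and 5, 37, and 31 in TN. IFNL2 and IFNL3, near-identical copies between which reads may be split, had 375 and 572 counts in TNctrl library 2, 286 and 403 in library 3, and 0 in library 1. In TN they had 30 and 75 counts in library 2, 46 and 62 in library 3, and 0 in library 1. In the blocked fit, which called 15.3% of all tested genes lower, IFNB1, IFNL2, and IFNL3 fell with TN, by 2.43, 2.67, and 2.35 on the log2 scale (edgeR, adjusted p of 0.00436, 0.00140, and 0.00110). These falls rest on libraries 2 and 3, since the genes had 0 counts in library 1 of both groups. IFNL1 stood at -1.88 (adjusted p = 0.0730), and the other 3 IFN genes of the list were too low to test. Without the block none of the 4 passed, and no IFN gene could be tested with OA.

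Of the receptors and transcription factors of the IFN pathway, 0 of 11 tested passed with OA, beside 4.48% of all tested genes, and STAT2, a subunit of the factor that binds the IFN-stimulated response element, came closest with a log2 fold change of 0.93 ± 0.26 (SE, edgeR, adjusted p = 0.0782). With TN, 2 of 12 fell and 1 rose in the blocked fit, beside 27.1% of all tested genes called. Among them, the kinase TYK2 fell by 0.57 ± 0.17, while the kinase JAK1 rose by 0.69 ± 0.14 (adjusted p of 0.0415 and 0.00902). Without the block 0 of 12 passed with TN, beside 6.99% of all tested genes. Among 6 negative regulators, 0 passed with OA, again beside 4.48%. With TN in the blocked fit 2 of 6 fell, beside 15.3% of all tested genes called lower. These were USP18 and SOCS3, which fell by 1.96 and 0.72 (adjusted p of 0.00205 and 0.0314). Neither passed without the block, beside 6.99% of all tested genes.

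Of 32 other antiviral effectors tested with TN, 19 fell in the blocked fit and 0 rose, with a median log2 fold change of -1.03, beside 15.3% of all tested genes called lower. Without the block 0 of 32 passed, with a median of -1.16. IFIT1, which binds foreign RNA caps, fell by 1.80 ± 0.16, HERC5, the ligase for ISG15, fell by 1.55 ± 0.15, and RSAD2, the gene of viperin, fell by 2.72 ± 0.24 (edgeR, adjusted p of 0.000265, 0.000352, and 0.000494). RSAD2 had 0 counts in library 1 of TNctrl and of TN, so its fall rests on libraries 2 and 3. In TNctrl 28 of these 32 genes had a step over 2 on the log2 scale from library 1 to both other libraries. In TN 18 of the 32 had such a step. The shares over all tested genes were 1.43% in TNctrl and 4.41% in TN. With OA and no block, 1 of 28 tested effectors rose and 0 fell, beside 4.48% of all tested genes called, and the median was -0.18. The gene that rose was ISG20, an exonuclease, with 77, 130, and 88 counts in OActrl, 344, 1361, and 256 counts in OA, and a log2 fold change of 3.78 ± 0.70 (adjusted p = 0.0303). CMPK2, a mitochondrial nucleotide kinase that neighbours RSAD2, stood at -2.18 ± 0.58 (adjusted p = 0.0723) and IFI35 at 1.36 ± 0.39 (adjusted p = 0.0831). With TN, ISG20 had 43.3, 38.5, and 31.4 CPM against 3.40, 22.2, and 23.0 CPM in TNctrl, above DMSO in library 1 as OASL was, but also in libraries 2 and 3, where OASL was below DMSO.

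**Figure D4:**
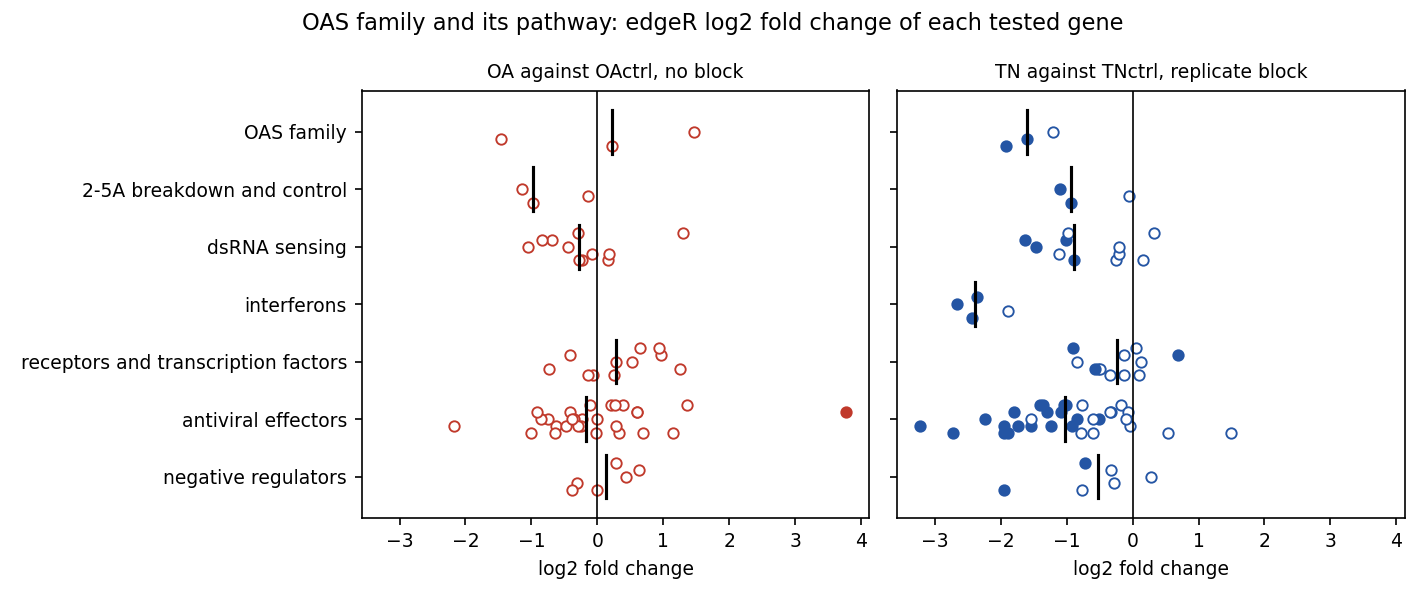
edgeR log2 fold change (x axis) of each tested gene of the OAS family and of the other pathway lists (y axis), for OA without a block on the left and TN with the replicate block on the right. Filled points have an adjusted p under 0.05 and bars are list medians. The panels come from fits of different form, so their filled points are not to be set against each other: without the block TN has 0 called genes in the OAS family and 0 among the antiviral effectors.

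The genes most like each member were sought by the correlation of log2 CPM over all 12 libraries among 13744 genes with a mean of at least 1 CPM. These values are descriptions, since the same libraries 2 and 3 of TN and TNctrl carry them. OAS1 was most like PLSCR1 (r = 0.99), BATF2, PARP9, IFIT3, and DDX60 (r = 0.98 for each). OAS3 was most like SP110 and PSMB9 (r = 0.97 for both), CMPK2, LPAR1, and ZC3HAV1, and OASL was most like PARP12 (r = 0.98), IFNB1, RSAD2, TAP1, and CCL5. Between members, r was 0.92 for OAS1 with OASL, 0.87 for OAS1 with OAS3, and 0.76 for OAS3 with OASL. Within the 6 libraries of the OA experiment, OAS3 and OASL had r = -0.77, and within the 6 libraries of the TN experiment they had r = 0.94. For OAS1, r with OASL and with OAS3 was -0.29 and -0.30 within the OA experiment. Within the TN experiment it was 0.96 for both.

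Several neighbours of the OAS genes on chromosome 12 were low. RPH3A, before the cluster, had 6 counts at most, DTX1, after it, had 2 counts at most, and the pseudogene IMMP1LP2 had 0 counts in all libraries, levels too low for a comparison between libraries. Next to OASL, the pseudogene OASL2P had 2 counts at most, and P2RX7, a receptor for extracellular ATP, had 3, 23, and 15 counts in TNctrl and 5, 16, and 5 in TN.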

How the data were processed

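RNA was measured in 12 libraries of HCT116 cells, 3 each of OA, its DMSO control, TN, and its DMSO control, grouped by the sample labels. The authors checked the reads with FastQC 0.11.5, aligned them to hg38 with STAR 2.7.9, counted them per gene with Gencode 32, and deposited raw counts without normalization. They used DESeq2 for their comparisons, and the deposited tables of fold changes and p-values from it were not used. The labels name a stranded total RNA kit, and the study calls the assay mRNA-seq.

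Counts were normalized by TMM, filtered with filterByExpr, and fitted separately for OA and TN in edgeR 4.0.16 (R 4.3.3). Two-sided quasi-likelihood tests were adjusted by Benjamini-Hochberg across the genes tested, at a threshold of 0.05. Each SE was derived from the fold change and its F statistic. The contrast of OA and TN was fitted over 12 libraries. Levels are CPM, or log2 CPM with a prior count of 2, scaled within each experiment. Lengths, gene positions, and transcripts came from a later Gencode release than the one used for counting. No library pair of a group agreed within sampling noise, the chi-square statistic per gene being at least 6.25.

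Same-numbered TN and TNctrl libraries deviated together from their group means (correlations 0.639, 0.409, and 0.427 across genes), so the numbers were taken to pair them. Libraries 2 and 3 also deviated with each other (0.436 for TN 2 with TNctrl 3, and 0.378 for TN 3 with TNctrl 2). The values thus set library 1 apart but did not show how libraries 2 and 3 pair, and no label states a shared day or batch. For OA the values were 0.625, 0.539, and 0.0908, the last being low, and the numbers were not taken to pair. Each OA library nevertheless correlated best with its own number. The choice differed between the experiments, so blocked calls with TN and unblocked calls with OA are not to be set against each other.

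The members and lists were chosen with earlier results of these data known. Genes were named by a rule: the members, DDIT3, HSPA5, ACTB, the nearest neighbours on the chromosome, up to 3 genes with the lowest p per list in each comparison, in the blocked fit for TN, and the 5 genes most correlated with each member. DHX58 with TN, SOCS3, and the IFN gene IFNL1 were named in counts or levels beside them. Alternatives were DESeq2 1.42.0, DESeq2 size factors, scaling to total counts or ACTB, leaving out RN7SL genes, other filters, a replicate block, GC offsets, a fit of all 12 libraries, and leaving out each library. Scripts were tested on simulated data. A planned comparison of the protein sequences was not made, and a few genes and a motif that the rule would name are not reported here.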

Additional observations from a re-analysis of the deposited data

Results flagged for a closer look

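The mean change of OASL with OA exceeded that with TN by 2.44 on the log2 scale, because all OA libraries exceeded their DMSO mean and all TN libraries were under theirs. The test of the difference itself, the contrast over 12 libraries in edgeR, gave 3.14 ± 1.35 (SE) with an adjusted p of 1.00. Without the filter on low counts the same contrast gave 3.30 with an adjusted p of 4.88e-09, and OASL was not called in any of the other 10 alternatives or when a library was left out. The direction in TN also depends on the comparison made, since TN library 1, with 12.01 CPM, was above the DMSO library of the same number, with 7.39 CPM.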

How the results depend on the processing

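The count of called members was 0 in each comparison and changed with the processing. For OA it was 2 with DESeq2, without a filter, with the replicate block, with GC offsets, with the block and GC offsets, and with the block and no filter, and 1 with DESeq2 size factors, total counts, ACTB scaling, or at least 10 counts in every library. It stayed at 0 without RN7SL genes and in a fit of all 12 libraries, and ranged from 0 to 2 when each library was left out, with 2 without OA replicate 1 or OA replicate 2. For TN it was 1 with DESeq2, 2 without a filter, 2 with the replicate block, 3 with the block and GC offsets, 4 with the block and no filter, and 4 with libraries 2 and 3 only, and it ranged from 0 to 1 when each library was left out, with 1 (OAS2) without TNctrl replicate 1. For the difference between OA and TN it was 2 (OAS1 and OASL) without a filter and 1 (OAS1) with the block and GC offsets, and 0 to 0 when each library was left out. The cause of these shifts was not tested.

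The log2 fold change of OAS1 with OA turned from 0.23 to -0.28 without OA replicate 1 and ranged up to 0.57 when each library was left out. The difference between OA and TN for OAS3 turned from 0.12 to -0.010 with the replicate block, to -0.048 with the block and GC offsets, and to between -0.17 and 0.69 when each library was left out, below 0 without OA replicate 2 (-0.0044), TNctrl replicate 2 (-0.13), TNctrl replicate 3 (-0.13), or TN replicate 1 (-0.17). No other log2 fold change of a member changed sign under these alternatives. With TN and no block, leaving out each library moved OAS1 between -2.42 and -1.26. The ranges were -2.19 to -1.22 for OAS3 and -2.34 to -1.28 for OASL. For OA, where the numbers were not taken to pair, the block raised the calls over all genes from 658 to 3914, with OAS3 at -1.53 (adjusted p = 0.00287) and OASL at 1.40 (adjusted p = 0.00732), and each OA library correlated best with its own number. The blocked OA fit also called PDE12 (-1.20, adjusted p = 0.00245) and ABCE1 (-1.23, adjusted p = 0.00927), 2 higher and 5 lower of 28 antiviral effectors, 1 higher (TRIM25, 1.23, adjusted p = 0.00666) and 1 lower (EIF2AK2, -1.02, adjusted p = 0.0282) of 11 genes for dsRNA sensing, and 2 higher (STAT2, 0.90, adjusted p = 0.0102, and IRF7, 1.09, adjusted p = 0.0250) of 11 receptors and transcription factors. For TN it raised them from 1009 to 3915. Calls over all genes for OA were 1642 with DESeq2, 1572 without a filter, 1425 with ACTB scaling, 2398 with GC offsets, and 3 to 1179 when each library was left out. For TN they were 1740 with DESeq2, 1648 without a filter, 3174 with GC offsets, and 151 to 2361 when each library was left out. Total counts and ACTB scaling moved the median over all genes to -0.23 and 0.42 for OA and to -0.18 and 0.30 for TN, and the calls with OA were then 352 higher and 395 lower, or 1341 higher and 84 lower.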
